A study of Mus musculus with 6 samples.

Results

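Mitochondrial ribosomal proteins are the protein part of the mitoribosome, and their genes were taken from the count table as the rows whose symbol starts with Mrpl or Mrps followed by a number, does not end in -ps plus a number, and has at least 60 counts in all. Of 46095 rows, 82 had such a symbol, 4 of these were pseudogene rows ending in -ps plus a number, and none of the other rows held under 60 counts, which left 78 members. The rule held 49 Mrpl rows, named for the large subunit, and 29 Mrps rows, named for the small subunit. By the GENCODE annotation, 77 members are protein-coding genes and 1 is a processed pseudogene, Mrpl48-ps, which the wording of the rule retains. The samples were mouse BV2 cells, an immortalized microglial line, grown in six-well plates. They were left untreated (CON group, 3 libraries) or were stimulated for 6 h with sTREM-1 recombinant protein at 1 μg/mL (sTREM-1 group, 3 libraries). sTREM-1 is the soluble form of a receptor of myeloid cells. All libraries came from the same cell line and from wells rather than animals, so that every p-value below measures the spread between these libraries.

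Mitochondria carry their own genome, which encodes a small set of respiratory chain proteins together with the RNAs needed to make them. The mitoribosome translates these messages, and all of its proteins are encoded in the nucleus, made in the cytosol and imported. Its small subunit binds the messenger RNA and decodes it, and its large subunit joins the amino acids and releases the chain towards the inner membrane. Many of its proteins descend from bacterial ribosomal proteins, while others were added in the mitochondrial lineage.

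The libraries held 40699904, 40779439 and 40663981 counts in the CON group and 45877107, 42819805 and 40070633 in the sTREM-1 group, and all 78 members passed the filter on low counts. No libraries of a group agreed within sampling noise, since the chi-square per gene was 3.47 to 4.99 within groups and 20.4 to 22.3 between them. Of 12 markers of microglia and macrophages, 11 reached 10 counts in a library, and Aif1, a common microglial marker, was at 0 in all 6. The summed microglial markers were 2661 to 2690 CPM of the library total (CPM, counts scaled to a library of 1000000) in the CON group and 2896 to 2952 in the sTREM-1 group. The markers of neurons, astrocytes, oligodendrocytes, endothelial cells and lymphocytes each stayed low, with the highest sum, 7.89 for the 4 oligodendrocyte markers, in a CON library. The part of any of these differences in the results below was not tested.

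Compared with the CON group, the mitoribosomal genes moved in both directions and by small amounts after sTREM-1. In edgeR's quasi-likelihood test, fitted over all 14120 genes that passed the filter, 24 of the 78 members (30.8%) passed an adjusted p of 0.05 (Benjamini-Hochberg) and are called below. Over the whole table the share was 30.5%, so in this fit the members were called about as often as any other gene. 11 members rose and 13 fell, beside shares of 16.5% for rises and 14.1% for falls over all genes. Scaling by total counts in place of TMM left 6 members that rose and 14 that fell, beside 2026 and 2280 of the 14120 genes. DESeq2 called 6 and 12 members, beside 2136 and 1891 genes. In both, and with each library left out, a smaller share of the members than of all genes was called. Whether these shares differ was not tested. The median log2 fold change (sTREM-1 over CON) of the members was -0.002, with quartiles at -0.09 and 0.10, and that of all genes was -0.002, with quartiles at -0.13 and 0.13. The sign of the members' median turned in some settings, within -0.02 and 0.01 over all of them. The members were therefore centred close to where all genes were, and the size of their change, a median of 0.09 without its sign, was below the 0.13 of all genes. Only 2 called members, Mrpl40 and Mrps31, had a change of at least 1.2-fold, while 10.7% of all genes were called with such a change. Since these are bulk libraries, less RNA per cell and fewer cells with the RNA cannot be told apart in any of these values.

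**Figure D1:**
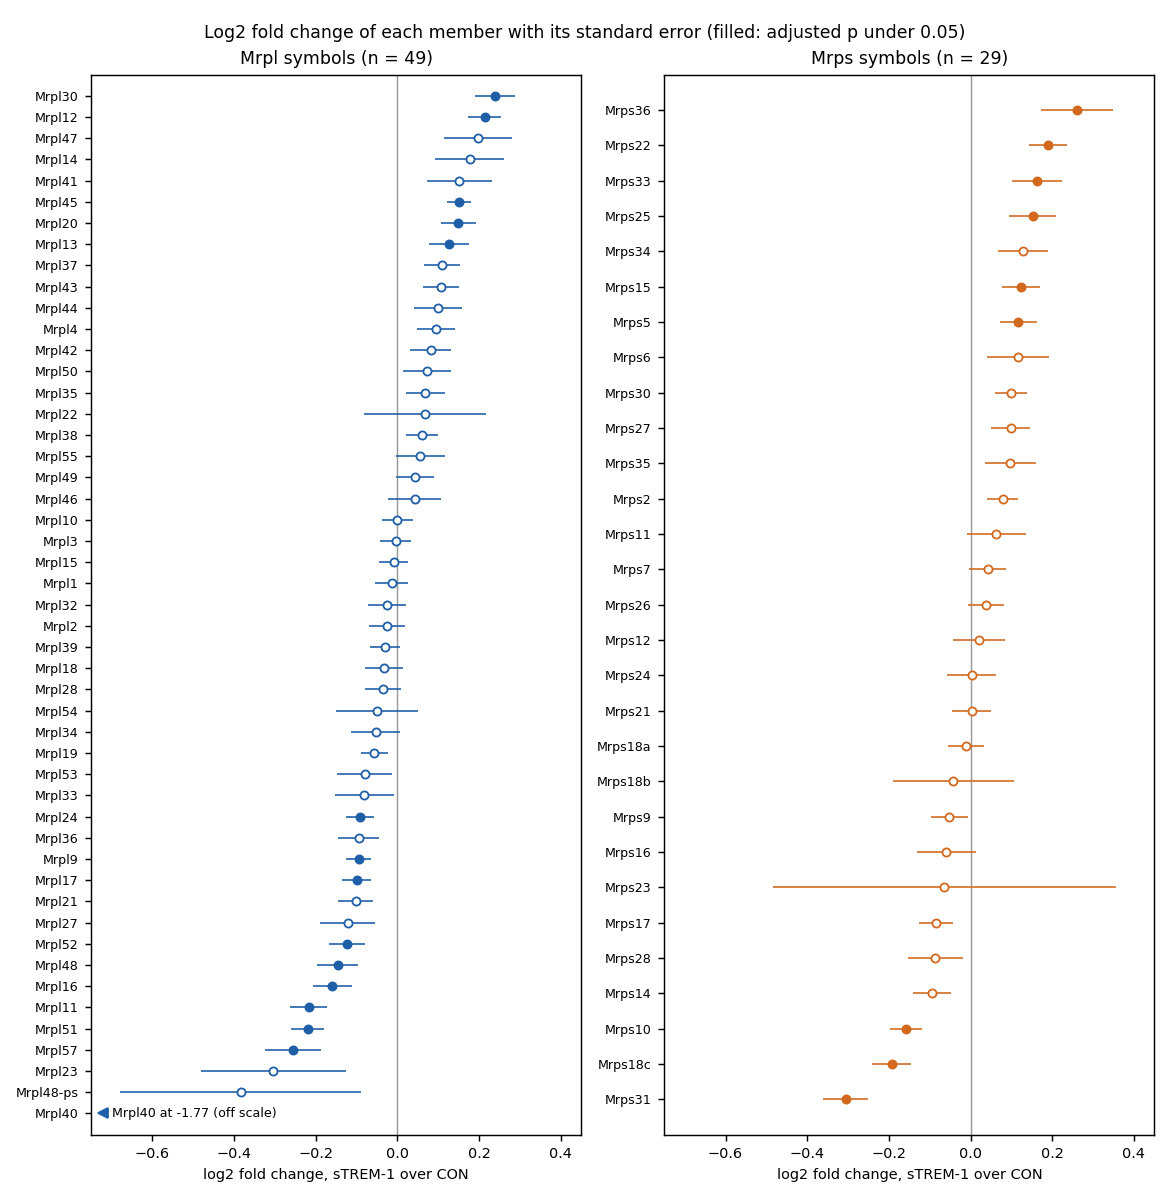
Log2 fold change of each member (x axis, sTREM-1 over CON) with its standard error, for the 49 Mrpl and 29 Mrps symbols, where filled points have an adjusted p under 0.05. The changes run on both sides of 0 in both panels, 11 filled points lie above 0 and 13 below it, and Mrpl40, at -1.77, is marked off the scale.

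The values of the CON group and the sTREM-1 group did not overlap in 34 members, with 19 on the higher and 15 on the lower side. Over all genes 40.7% did not overlap, 21.3% on the higher side and 19.4% on the lower side, and 3 libraries against 3 allow no exact permutation p under 0.1 for a single gene. The standard errors of the log2 fold changes had a median of 0.0475 and exceeded 0.1 in 7 members, 6 of them with under 10 CPM, here and below relative to the TMM-scaled library size. Of the 54 members not called, 27 had a positive and 27 a negative change. In 45 of these 54, the 95% interval lay within 1.2-fold either way, so that larger changes lie outside the interval there.

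The summed level of the members differed between the groups by less than the SD of the libraries. It was 3403, 3372 and 3342 CPM in the CON group and 3396, 3374 and 3347 CPM in the sTREM-1 group, with means of 3373 ± 30.3 and 3372 ± 24.1 (SD, n = 3). The groups overlapped fully, and the ratio of the means was 0.9999. The Mrpl members summed to 2325 ± 19.8 CPM under CON and 2315 ± 21.6 CPM under sTREM-1 (SD, n = 3), and the Mrps members to 1047 ± 13.2 and 1058 ± 7.22. The ratio of the Mrpl to the Mrps sum was 2.225, 2.197 and 2.239 in the CON libraries and 2.213, 2.168 and 2.186 in the sTREM-1 libraries. These ratios overlapped between the groups. As a share of all counts, the members made up 0.331% to 0.342% of a library.

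**Figure D2:**
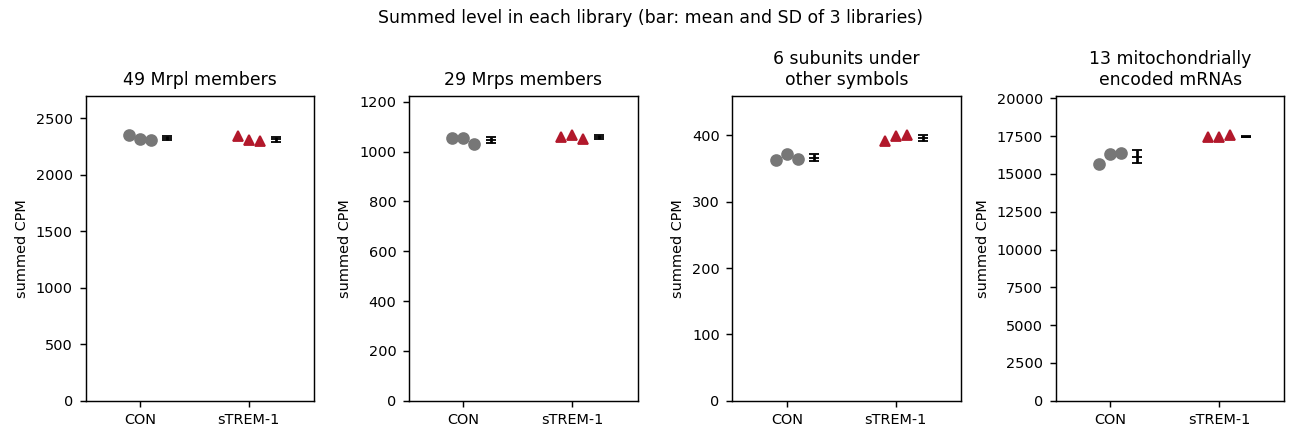
Summed CPM (y axes, from 0) in each library of the CON group (circles) and the sTREM-1 group (triangles), with the mean and SD of 3 libraries beside them. The Mrpl and Mrps sums overlap between the groups, while the 6 subunits under other symbols and the 13 mitochondrially encoded mRNAs are higher in every sTREM-1 library.

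Among the members that rose, 8 of smallest p without overlap are given by library. Mrpl12 encodes a stalk protein of the large subunit that has also been described to bind the mitochondrial RNA polymerase, and lies on chromosome 11 from 120484613 to 120489065 (GRCm38). It had 66.4, 60.4 and 67.1 CPM in the CON group and 73.9, 77.1 and 73.9 CPM in the sTREM-1 group. Every sTREM-1 library was above every CON library, at a log2 fold change of 0.21 with a standard error of 0.04 (edgeR adjusted p = 0.000148). Mrpl45, whose protein attaches the large subunit to the inner membrane near the exit of the tunnel, lies on the same chromosome from 97315716 to 97329920. It was among the most abundant members, at 152, 152 and 147 CPM in the CON group and 168, 170 and 161 CPM after sTREM-1. The groups stood apart although the change was only 0.15 on the log2 scale (standard error 0.03, adjusted p = 0.000208). Mrpl30, a large subunit protein of bacterial ancestry on chromosome 1 from 37890477 to 37898535, had 37.9, 39.1 and 36.2 CPM in the CON group and 42.6, 44.1 and 46.8 CPM in the sTREM-1 group. Its lowest sTREM-1 library was above its highest CON library, and its log2 fold change was 0.24 (standard error 0.05, adjusted p = 0.000295). Mrps22 encodes a small subunit protein without a bacterial counterpart, whose defects in humans impair the respiratory chain, and lies on chromosome 9 from 98588730 to 98601660. It had 38.05, 36.5 and 39.8 CPM in the CON group and 43.6, 43.9 and 42.9 CPM in the sTREM-1 group, with a log2 fold change of 0.19 (standard error 0.05, adjusted p = 0.00219). These 4 genes, Mrpl12, Mrpl45, Mrpl30 and Mrps22, were the rises that remained called in all 15 other settings tried, among them each single library left out.

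The other rises were each lost in some of these settings. Mrps36, named as a small subunit protein but now known as a part of the 2-oxoglutarate dehydrogenase complex, had 11.8, 10.1 and 11.2 CPM in the CON group and 12.8, 14.1 and 12.8 CPM in the sTREM-1 group. It had the highest positive log2 fold change of the members, 0.26 (standard error 0.09, adjusted p = 0.0231), and the adjusted p was 0.130 without CON replicate 2 and 0.109 without sTREM-1 replicate 2. Mrps15, a small subunit protein of bacterial ancestry, had 45.8, 49.9 and 46.1 CPM in the CON group and 50.2, 49.9 and 54.5 CPM in the sTREM-1 group. Its groups were separated by a very small gap between CON replicate 2 and sTREM-1 replicate 2, and the log2 fold change was 0.12 (adjusted p = 0.0425). It was not called without CON replicate 1 (0.171), CON replicate 3 (0.155) or sTREM-1 replicate 3 (0.257), nor with DESeq2 (0.0708) or total counts (0.0807). Mrps25, a mitochondrion-specific small subunit protein, had 24.5, 23.8 and 23.4 CPM in the CON group and 26.7, 25.8 and 27.2 CPM in the sTREM-1 group, with a log2 fold change of 0.15 (adjusted p = 0.0484). Each library left out ended this call, with adjusted p from 0.0583 to 0.145, as did 6 of the 9 other settings, and 69.8% of its exonic bases overlap Nr2c2 on the opposite strand. Mrps5, which belongs to the decoding region of the small subunit, had 40.1, 42.7 and 40.7 CPM in the CON group and 43.7, 45.2 and 45.1 CPM in the sTREM-1 group. The log2 fold change was 0.12 (adjusted p = 0.0497), and 5 of the 6 libraries, all but CON replicate 2, ended the call when left out, with adjusted p from 0.0645 to 0.169, as did 7 of the 9 other settings. Mrpl13, Mrpl20 and Mrps33 were also called, with log2 fold changes of 0.13, 0.15 and 0.16. Of these 3, the groups overlapped in Mrpl20 and Mrps33, and the largest adjusted p with a library left out was 0.226 for Mrpl13 (CON replicate 3), 0.0715 for Mrpl20 and 0.218 for Mrps33 (both sTREM-1 replicate 1). Mrpl20 also lost its call without CON replicate 1 (0.0619) or sTREM-1 replicate 2 (0.0522), Mrps33 without CON replicate 2, CON replicate 3 or sTREM-1 replicate 3, and Mrpl13 in every case but without sTREM-1 replicate 3. Mrps33 was also not called with DESeq2 (0.0657) or total counts (0.0720), and Mrpl13 in 5 of the 9 settings that keep all libraries.

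The promoters of the 2 rises of smallest p are shown, picked by p without regard to motifs. Each is read from RefSeq on GRCm38.p6, on the plus strand, from 250 bases before the start of the gene to 30 after it, at chr11:120484387-120484666 for Mrpl12 and chr11:97315466-97315745 for Mrpl45. The capitals mark matches to NRF1, a factor that binds promoters of many nuclear genes for mitochondrial proteins.
Mrpl12: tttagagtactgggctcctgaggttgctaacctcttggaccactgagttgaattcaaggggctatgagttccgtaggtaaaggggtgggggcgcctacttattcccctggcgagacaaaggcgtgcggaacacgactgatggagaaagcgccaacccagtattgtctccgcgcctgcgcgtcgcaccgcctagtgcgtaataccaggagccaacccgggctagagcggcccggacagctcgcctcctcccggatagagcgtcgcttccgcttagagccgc
Mrpl45: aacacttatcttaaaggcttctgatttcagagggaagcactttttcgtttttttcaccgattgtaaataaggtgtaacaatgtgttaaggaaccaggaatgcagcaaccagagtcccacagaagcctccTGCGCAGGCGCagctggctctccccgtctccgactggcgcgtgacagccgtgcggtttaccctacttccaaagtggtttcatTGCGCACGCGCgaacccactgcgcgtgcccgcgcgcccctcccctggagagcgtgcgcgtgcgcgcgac
No letters of the searched NRF1, ETS/GABP or YY1 motifs occur in the Mrpl12 window. The Mrpl45 window holds 2 NRF1 matches, the first at position -121 from the start.

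Among the members that fell, the 8 of smallest p without overlap are likewise given by library. Mrps31, a small subunit protein without a bacterial counterpart on chromosome 8 from 22411361 to 22429665, had 47.5, 48.6 and 46.9 CPM in the CON group and 38.9, 42.3 and 34.3 CPM in the sTREM-1 group. The CON libraries lay close together and all sTREM-1 libraries lay below them, at a log2 fold change of -0.31 with a standard error of 0.05 (edgeR adjusted p = 5.41e-05). Mrpl51, a mitochondrion-specific protein of the large subunit on chromosome 6 from 125191801 to 125196269, had 69.5, 63.8 and 67.4 CPM in the CON group and 59.0, 57.0 and 56.3 CPM in the sTREM-1 group. The groups did not overlap, and the log2 fold change was -0.22 (standard error 0.04, adjusted p = 9.51e-05). Mrpl11, at the base of the stalk of the large subunit and on chromosome 19 from 4962147 to 4966999, had 48.4, 49.1 and 51.1 CPM in the CON group and 44.3, 43.0 and 40.4 CPM in the sTREM-1 group. Its log2 fold change was -0.22 (standard error 0.05, adjusted p = 0.000427), opposite in sign to that of the stalk protein gene Mrpl12. Mrps10, a small subunit protein of bacterial ancestry on chromosome 17 from 47368887 to 47381417, had 63.6, 64.3 and 64.4 CPM in the CON group and 57.3, 57.0 and 58.1 CPM in the sTREM-1 group. Both groups were tight, and the log2 fold change was -0.16 (standard error 0.04, adjusted p = 0.00182). Mrps18c, which belongs to a family of 3 proteins related to the same bacterial protein, lies on chromosome 5 from 100798627 to 100804471. It had 42.7, 43.5 and 42.8 CPM in the CON group and 37.9, 39.1 and 35.8 CPM in the sTREM-1 group, with a log2 fold change of -0.19 (standard error 0.05, adjusted p = 0.00195), and 23.2% of its exonic bases overlap another annotated gene on the same strand. These 5 genes, Mrps31, Mrpl51, Mrpl11, Mrps10 and Mrps18c, were the falls that remained called in all 15 other settings.

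The remaining falls were less stable. Mrpl57, a mitochondrion-specific large subunit protein, had 24.9, 22.4 and 22.7 CPM in the CON group and 20.7, 19.7 and 18.3 CPM in the sTREM-1 group, with a log2 fold change of -0.26 (adjusted p = 0.00435) that was not called without CON replicate 1 (0.0558). Mrpl16, of bacterial ancestry, had 38.4, 39.7 and 39.4 CPM in the CON group and 35.7, 33.9 and 35.7 CPM in the sTREM-1 group, with a log2 fold change of -0.16 (adjusted p = 0.0108) that was not called without sTREM-1 replicate 2 (0.0585). The groups stood apart in both genes. Mrpl9, one of the most abundant members, had 166, 159 and 156 CPM in the CON group and 155, 148 and 148 CPM in the sTREM-1 group. Its groups were separated by a narrow gap, and its log2 fold change of -0.10 (adjusted p = 0.0166) lost its call without CON replicate 1 (0.139), sTREM-1 replicate 2 (0.0638) or sTREM-1 replicate 3 (0.0510). Mrpl17, Mrpl24, Mrpl48 and Mrpl52 also fell, with log2 fold changes of -0.10, -0.09, -0.15 and -0.12. Each of these 4 lost its call in 3 of the 6 settings that left out a library. The largest adjusted p was 0.163 for Mrpl17 (without sTREM-1 replicate 1), 0.297 for Mrpl24 (without CON replicate 1), 0.201 for Mrpl48 (without CON replicate 2) and 0.185 for Mrpl52 (without sTREM-1 replicate 3). Mrpl17 also lost its call without CON replicate 1 or CON replicate 3, Mrpl24 without CON replicate 2 or sTREM-1 replicate 2, Mrpl48 without sTREM-1 replicate 1 or sTREM-1 replicate 2, and Mrpl52 without CON replicate 1 or CON replicate 2. With the correction for GC content and length, Mrpl17 (-0.08, adjusted p = 0.0769) and Mrpl52 (-0.08, adjusted p = 0.159) were not called either, with or without the replicate block. In Mrpl24 the groups overlapped, and 26.3% of its exonic bases overlap Rrnad1 on the opposite strand.

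The promoters of the 2 falls of smallest p are shown in the same way, at chr8:22411090-22411369 for Mrps31 and chr6:125191950-125192229 for Mrpl51, both on the plus strand. The RefSeq start of Mrpl51, 125192200, lies downstream of the first base of the GENCODE gene given above, so its window falls within the GENCODE gene. The capitals mark a match to ETS/GABP, the motif of the GABP factor, which is another regulator of nuclear genes for mitochondrial proteins.
Mrps31: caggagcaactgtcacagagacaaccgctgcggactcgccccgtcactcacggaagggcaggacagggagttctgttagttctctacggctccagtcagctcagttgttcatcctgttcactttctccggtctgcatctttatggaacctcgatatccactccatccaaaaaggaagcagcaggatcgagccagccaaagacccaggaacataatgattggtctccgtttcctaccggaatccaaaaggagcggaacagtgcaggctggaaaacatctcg
Mrpl51: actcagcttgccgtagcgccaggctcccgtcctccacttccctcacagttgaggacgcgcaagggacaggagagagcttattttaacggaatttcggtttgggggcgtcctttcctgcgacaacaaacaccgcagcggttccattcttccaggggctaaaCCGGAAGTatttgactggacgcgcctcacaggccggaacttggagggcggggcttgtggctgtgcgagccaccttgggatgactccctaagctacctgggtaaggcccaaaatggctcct
The Mrps31 window holds none of the NRF1, ETS/GABP and YY1 motifs, and the capitals in the Mrpl51 window are overlapping matches to both ETS/GABP spellings, starting at position -90. Of the windows shown, those of Mrpl45 and Mrpl51 thus held such a motif. Over all members with a window, such a motif stood in 2 of 10 rises, 7 of 13 falls and 28 of 45 members not called.

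**Figure D3:**
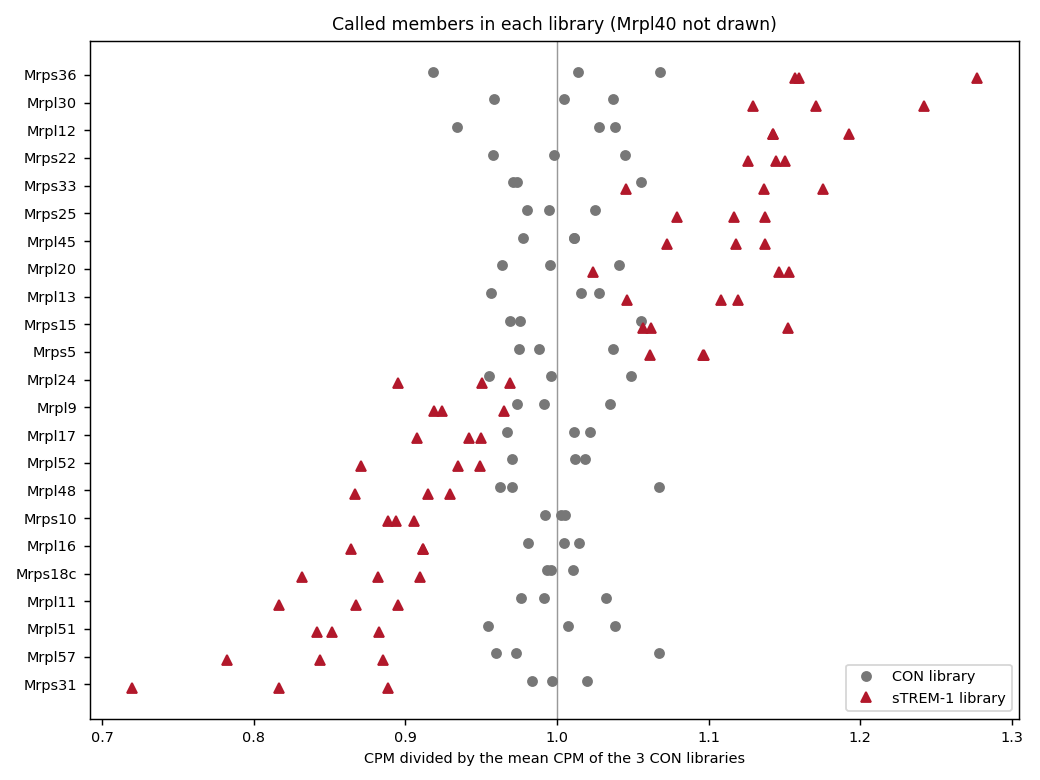
CPM of the called members in each library divided by the mean of the 3 CON libraries (x axis), with CON libraries as circles and sTREM-1 libraries as triangles, and without Mrpl40. Most triangles of the rises lie above the circles of the same gene and most of the falls below them, and the circles and triangles of Mrpl20, Mrps33 and Mrpl24 overlap.

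The call of Mrpl40 rested on a single library. Mrpl40, a mitochondrion-specific large subunit protein on chromosome 16 from 18872018 to 18876862, had 16, 8 and 143 counts in the CON group and 20, 14 and 17 in the sTREM-1 group. CON replicate 3 was far above the other 5 libraries, and the groups overlapped. The log2 fold change was -1.77 (standard error 0.60, adjusted p = 0.0237), and it turned to 0.44 (adjusted p = 0.638) without CON replicate 3. It was also not called without sTREM-1 replicate 2 (0.0696) or sTREM-1 replicate 3 (0.0632), or in DESeq2 (0.25). No other member had a library over 5 times from the rest of its group. The pseudogene row Mrpl48-ps, whose log2 fold change of -0.38 (standard error 0.30, adjusted p = 0.367) was the second largest in size, had 2.12, 1.46 and 1.59 CPM in the CON group and 2.01, 0.73 and 1.21 CPM in the sTREM-1 group, which overlap.

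By subunit, 15 of 49 Mrpl members (30.6%) were called, with 5 rises and 10 falls. Of 29 Mrps members, 9 (31.0%) were called, with 6 rises and 3 falls. Both shares were near the 30.5% of all genes, of which 16.5% rose and 14.1% fell. The median log2 fold change was -0.02 for Mrpl and 0.04 for Mrps, and the signs of both medians were kept under every scaling and with each library left out, with ranges of -0.04 to -0.01 and 0.02 to 0.04. Whether the subunits differ was not tested, and the counts of rises and falls moved with single libraries and with the scaling. The 6 Mrps rises were 2 with total counts or DESeq2 and 2 to 4 with a library left out, with 2 without CON replicate 3 or sTREM-1 replicate 3, 3 without CON replicate 2, sTREM-1 replicate 1 or sTREM-1 replicate 2, and 4 without CON replicate 1. The 10 Mrpl falls were 5 without CON replicate 1 and 6 without sTREM-1 replicate 2, and the 5 Mrpl rises were 3 without sTREM-1 replicate 1. Symbols do not always name the subunit, since Mrps30 and Mrps18a lie in the large subunit. Mrps36, among the 6 Mrps rises, is now known as a part of the 2-oxoglutarate dehydrogenase complex. The Mrps counts are therefore counts of symbols and not of small subunit proteins.

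**Figure D4:**
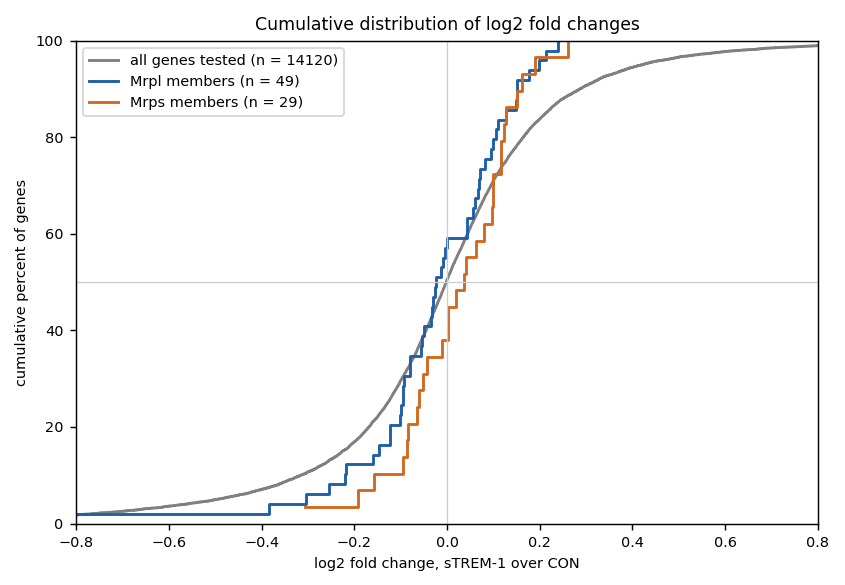
Cumulative percent of genes (y axis) by log2 fold change (x axis, sTREM-1 over CON) for all 14120 genes tested, the 49 Mrpl members and the 29 Mrps members. The members rise more steeply around 0 than all genes, and the Mrps line lies to the right of the Mrpl line around its middle, at a median of 0.04 against -0.02.

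Members were also grouped by the ancestry listed for the protein. Of 45 listed as bacterial in ancestry, 13 (28.9%) were called, with 6 rises and 7 falls and a median log2 fold change of -0.02. Of 31 listed as mitochondrion-specific, 10 (32.3%) were called, with 4 rises and 6 falls and a median of 0.06. Both shares were near the 30.5% of all genes. Mrps18a and Mrps18b, neither of them called, were listed as mitochondrion-specific, although their relative Mrps18c was listed as bacterial. Among the 29 large subunit proteins of bacterial ancestry, Mrpl12, Mrpl13, Mrpl20 and Mrpl30 rose and Mrpl9, Mrpl11, Mrpl16, Mrpl17 and Mrpl24 fell. Among the 21 mitochondrion-specific large subunit proteins, Mrpl45 rose, while Mrpl40, Mrpl48, Mrpl51, Mrpl52 and Mrpl57 fell. Of the 16 small subunit proteins of bacterial ancestry, Mrps5 and Mrps15 rose and Mrps10 and Mrps18c fell, and of the 10 mitochondrion-specific ones, Mrps22, Mrps25 and Mrps33 rose and Mrps31 fell. These counts moved with the settings. The bacterial class had 2 rises and 4 falls without CON replicate 1, and 3 rises with DESeq2, with total counts, or without CON replicate 3, sTREM-1 replicate 1 or sTREM-1 replicate 2. The mitochondrion-specific class had 2 rises with DESeq2, with total counts, or without CON replicate 2, CON replicate 3, sTREM-1 replicate 1 or sTREM-1 replicate 3. Both classes held rises and falls in every setting.

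Several members with a well-described role were not called. Mrps12, which encodes a decoding protein of the small subunit, had 21.8, 21.7 and 21.4 CPM in the CON group and 21.4, 21.9 and 22.5 CPM in the sTREM-1 group, and its 95% interval ran from -0.10 to 0.14 on the log2 scale. Mrpl3, a large subunit protein of bacterial ancestry, had 67.4, 67.4 and 68.3 CPM and 67.4, 68.7 and 66.5 CPM in the 2 groups, with an interval of -0.08 to 0.07. The groups overlapped in both genes. Mrps16, Mrps34, Mrps2 and Mrpl44, in which defects in humans also cause respiratory chain disease, had log2 fold changes of -0.06, 0.13, 0.08 and 0.10, with adjusted p of 0.598, 0.123, 0.122 and 0.225. In Mrps34, 63.4% of the exonic bases overlap Mapk8ip3 on the opposite strand. Mrps30, a large subunit protein also named for a link to programmed cell death, had 69.9, 68.2 and 65.1 CPM in the CON group and 70.6, 74.2 and 72.9 CPM in the sTREM-1 group. The groups did not overlap, and the adjusted p of 0.0524 for a log2 fold change of 0.10 lay just over the threshold. Mrps30 was called in 6 of the 15 other settings, with adjusted p from 0.0387 with the replicate block to 0.0497 without the filter on low counts. Mrpl41, described to act on p53 and BCL2, had 14.2, 15.6 and 13.1 CPM in the CON group and 15.6, 16.4 and 15.7 CPM in the sTREM-1 group, a log2 fold change of 0.15 (standard error 0.08, adjusted p = 0.166). Mrps18a and Mrps18b, the relatives of the called Mrps18c, had log2 fold changes of -0.01 (interval -0.10 to 0.08) and -0.04 (interval -0.33 to 0.25). Mrpl33 and Mrpl36, small proteins of the large subunit with close bacterial counterparts, had log2 fold changes of -0.08 and -0.09, with adjusted p of 0.454 and 0.169.

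Per length, the levels of the members spanned a wide range. Divided by the median length of their coding transcripts, Mrpl20 (149 CPM per kb), Mrps21 (121) and Mrpl52 (120) were the most abundant, and Mrpl47 (3.90), Mrps23 (1.103) and Mrpl40 (0.856) the least. With the longest transcript as the length, Mrpl52, Mrpl24 and Mrps21 led in this order and Mrps23 was lowest. Mrps23 had 0.61, 0.54 and 1.102 CPM in the CON group and 0.31, 1.196 and 0.66 CPM in the sTREM-1 group, and its 95% interval of -0.89 to 0.76 on the log2 scale spans 0. The median coefficient of variation of the members within a group was 3.72% in the CON group and 3.63% in the sTREM-1 group, and its highest values were 136% for Mrpl40 in the CON group and 62.3% for Mrps23 in the sTREM-1 group.

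The changes were set beside properties of the transcripts and of the loci. Across the 77 coding members, which share the 6 libraries, the Spearman correlation of the log2 fold change was 0.112 with GC content, -0.01 with the longest transcript length and -0.061 with the mean level, given as descriptions. The median GC content was 47.2% for the rises, 47.4% for the falls and 52.0% for the members not called. In 23 members, a protein-coding gene starts nearby on the opposite strand. Of 6 called members whose such neighbour was tested, 1 had a called neighbour, and it moved the other way: next to the falling Mrpl51, Ncapd2, a condensin subunit gene that starts 100 bases away, had 58.0, 60.6 and 61.8 CPM in the CON group and 84.7, 87.8 and 87.2 CPM in the sTREM-1 group (log2 fold change 0.52, adjusted p = 2.79e-12). The neighbour of Mrpl30, Mitd1, starts 66 bases away and had a log2 fold change of 0.16 (adjusted p = 0.131), and Helq, 29 bases from Mrps18c, had -0.16 (adjusted p = 0.119).

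Of the 78 members, 68 had a promoter window of 280 bases in the RefSeq table, and motifs were searched on both strands. NRF1 was searched as GCGCAT joined directly to GCGC. A further NRF1 spelling was TGCGCA joined directly to TGCG. The last one was TGCGCA with any base before an ending of GCGC, and these spellings overlap each other. NRF1 matches occurred in 16.2% of the members' windows, 6.96% of those of 9714 tested genes and 3.14% of all 27025 promoters, with 1 window per gene. ETS/GABP (CCGGAAG or CGGAAGT, which overlap each other) occurred in 38.2%, 21.6% and 10.7%, and YY1 (AAGATG followed by GCGGC, or CAAGATGG) in 11.8%, 3.05% and 2.05%. Any of these 3 motifs stood in 37 of the 68 windows (54.4%), beside 28.9% of tested genes and 14.7% of all promoters. By direction, it stood in 2 of 10 rises, 7 of 13 falls and 28 of 45 members not called. The E-box CACGTG (7.35% of members, 973 of 9714 tested genes), the CRE TGACGTCA (2.94% and 3.3%), TATAAA (5.88% and 6.91%) and CCAAT (36.8% and 38.3%) were about as frequent in members as in tested genes. A match is only an occurrence of these letters, and binding was not measured.

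The genes that act with the mitoribosome were compared in the same fit, in which 30.5% of all genes were called. Of 6 further subunits listed under other symbols, Dap3, a GTP-binding small subunit protein, and Aurkaip1 rose, with log2 fold changes of 0.15 (adjusted p = 0.000636) and 0.18 (adjusted p = 0.00095). Dap3 had 108, 109 and 104 CPM in the CON group and 114, 121 and 122 CPM in the sTREM-1 group, and Aurkaip1 had 61.9, 63.8 and 64.98 CPM and 74.99, 71.9 and 68.5 CPM. The groups did not overlap in either gene. Ict1, a release factor built into the large subunit and now also named as an Mrpl gene, had a log2 fold change of 0.18 (adjusted p = 0.0658), and Ptcd3, Gadd45gip1 and Chchd1 had 0.06, 0.06 and 0.06. All 6 were positive, with a median of 0.11 that stayed between 0.09 and 0.14 under every setting, and their summed level was 367 ± 4.74 CPM under CON and 397 ± 4.58 CPM under sTREM-1 (SD, n = 3).

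Of 27 tested assembly and rRNA factors, 3 rose and 4 fell, with a median log2 fold change of -0.05. Rbfa, which matures the small subunit, Dhx30, an RNA helicase, and Ngrn, which acts on the large subunit RNA, rose by 0.23, 0.16 and 0.19 on the log2 scale. Wbscr16 (-0.37), Ybey (-0.31), an RNA endonuclease, and the pseudouridine synthases Rpusd4 (-0.22) and Trub2 (-0.09) fell. The 3 rises were counted in every setting, while the falls were 1 without CON replicate 3 or sTREM-1 replicate 1, and 2 without CON replicate 1, without sTREM-1 replicate 2 or without the filter on low counts. The median of this list was -0.004 without CON replicate 1. Of 24 translation factors, 7 rose and 4 fell, with a median of -0.01. The rises included the elongation factors Gfm1 (0.25) and Tufm (0.17), the deformylase Pdf (0.24) and Lrpprc (0.10), which stabilizes mitochondrial messages, and the falls were Gfm2 (-0.12), which recycles ribosomes, the release factor Mtrf1l (-0.31), and Gatc (-0.19) and Qrsl1 (-0.21), both subunits of the glutaminyl-tRNA amidotransferase. The 11 calls of this list were 7 with total counts 4 without CON replicate 3 or without sTREM-1 replicate 1, and 6 without sTREM-1 replicate 3. Their median turned to 0.07 without sTREM-1 replicate 3 and to 0.01 without CON replicate 2. Of 17 mitochondrial tRNA synthetases, 4 rose, among them Cars2 (0.47), Wars2 (0.18) and Iars2 (0.10), and Mars2 (-0.17) fell, with a median of 0.10. The 5 calls were 2 without sTREM-1 replicate 1 and 3 without CON replicate 1 or sTREM-1 replicate 2, and the fall was absent in each of these.

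Of 22 tested factors of mitochondrial DNA and RNA, 5 rose, among them Grsf1 (0.20), Pnpt1 (0.17), Peo1 (0.17) and Tbrg4 (0.15), and Fastkd1 (-0.25) fell, with a median log2 fold change of 0.03. Peo1 encodes the DNA helicase of mitochondria and Grsf1 a protein of the granules where mitochondrial RNA matures. Of 13 regulators of mitochondrial biogenesis, Tfe3 (0.10) rose, and the coactivator gene Ppargc1b (-0.21) and the GABP subunit gene Gabpb2 (-0.13) fell. The rise of Tfe3 (adjusted p = 0.0495) was near the threshold, and the list held no rise with DESeq2, RLE, total counts, at least 10 counts in every library, or without any single library except CON replicate 3. Gabpb2 went from 246 ± 7.78 CPM under CON to 225 ± 1.43 CPM under sTREM-1 (SD over 3 libraries). Nrf1, Gabpa and Yy1, the genes of the factors whose motifs were searched, had log2 fold changes of -0.01, 0.07 and -0.04, and none was called (adjusted p = 0.893, 0.0983 and 0.311).

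For comparison, 14 of 76 cytosolic ribosomal protein genes (18.4%) were called, 12 of them rises such as Rpl7 and Rpl19, with a median of 0.004, and Rpl12 fell by 0.44 on the log2 scale. This median turned to -0.01 with total counts and without CON replicate 3. The 2 falls became 6 beside 11 rises with total counts, 5 with the replicate block or without CON replicate 3, and 7 without sTREM-1 replicate 2. Of 76 nuclear respiratory chain subunits, 18 were called (23.7%), with 11 rises and 7 falls and a median of 0.03, and these were 9 rises and 11 falls with total counts but 19 and 5 with the correction for GC content and length. They were 7 and 10 without CON replicate 3, and the falls were 4 without CON replicate 1, CON replicate 2 or sTREM-1 replicate 3. The messages that the mitoribosome translates are the 13 mitochondrially encoded mRNAs. Of these, 6 rose and none fell in edgeR's test. The log2 fold change was above 0 in all 13, in 12 with total counts, RLE or DESeq2, and in 11 without CON replicate 3 or sTREM-1 replicate 3, and its median was 0.15. Some of these rows were barely counted, with 7 to 21 counts per library for ND3, 19 to 38 for ND4L and 76 to 107 for ATP8. ND6 was above 0 only by 0.002, with a standard error of 0.05. COX1 had 10681, 11096 and 11210 CPM in the CON group and 11904, 11887 and 11801 CPM in the sTREM-1 group, CYTB had 1645, 1695 and 1697 CPM and 1842, 1859 and 1924 CPM, and ND1 had 999, 1084 and 1067 CPM and 1178, 1164 and 1209 CPM. All 3 were higher in every sTREM-1 library, with log2 fold changes of 0.11, 0.16 and 0.17. Together the 13 mRNAs took 1.57%, 1.64% and 1.65% of the counts in the CON libraries and 1.74%, 1.73% and 1.74% in the sTREM-1 libraries. Most of this came from COX1. The rises were 4 of 13 without CON replicate 1 or without sTREM-1 replicate 1. The mitochondrial rRNAs Rnr1 and Rnr2 summed to only 2.24 to 3.13 CPM in these libraries and were not called, and at these counts the RNA part of the mitoribosome was not measurable.

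**Figure D5:**
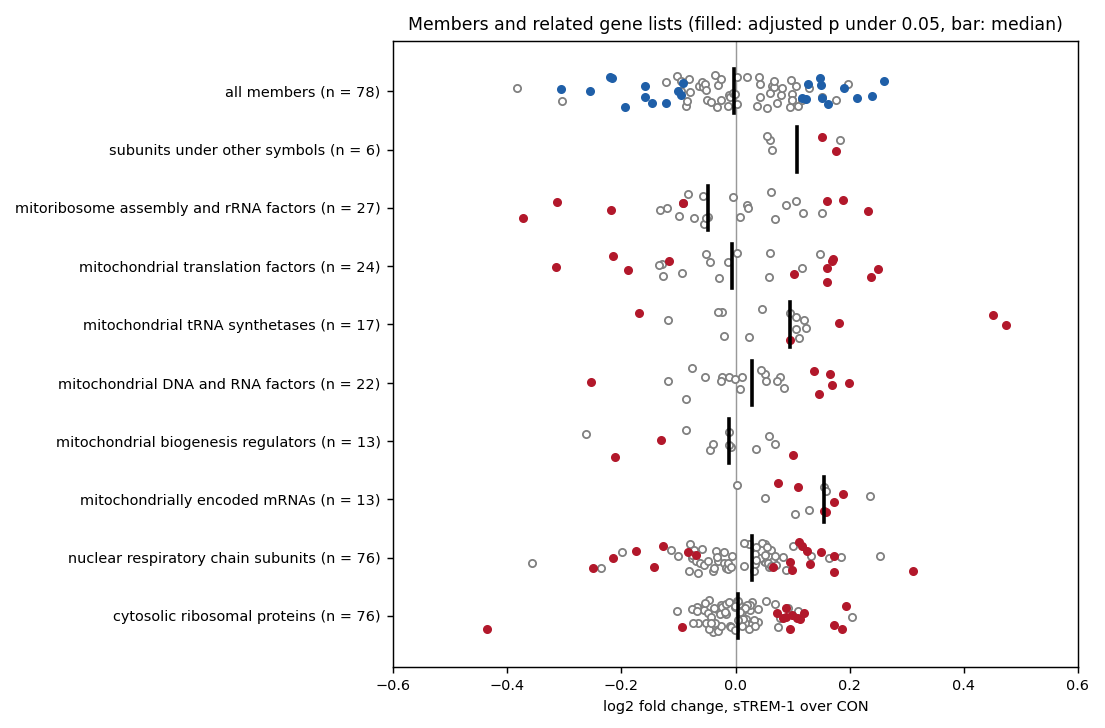
Log2 fold change (x axis, sTREM-1 over CON) of the 78 members and of the related lists (y axis), where filled points have an adjusted p under 0.05 the bar is the median, and Mrpl40 lies beyond the axis and is not drawn. The members lie on both sides of 0 around a median of -0.002, while the 6 subunits under other symbols and the 13 mitochondrially encoded mRNAs are all above 0 with the scaling used.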

How the data were processed

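RNA-seq counts of 6 libraries, 3 per group as the labels give them (the methods give n = 4), were analysed. The values the authors deposited are raw counts (whole numbers) for each gene symbol. The methods name FastQC, RSEM, FPKM and edgeR. The submitters' processing notes name HISAT2 2.0.4 and the human builds hg19 and GRCh38, although the symbols are of mouse. Annotation and strand setting are not given in the sources used here, so reads of overlapping genes or pseudogenes may be split or lost in these counts. All sample columns were used.

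In edgeR 4.0.16 (R 4.3.3), low genes were removed by filterByExpr at a minimum count of 10. Libraries were scaled by TMM, and the groups were compared by a quasi-likelihood fit without covariates, with Benjamini-Hochberg adjustment over 14120 genes at 0.05. Each standard error was the absolute log2 fold change over the root of F, and 95% intervals from a normal approximation. CPM used TMM-scaled library sizes. The biological coefficient of variation was 3.99%. The members and gene lists were chosen with earlier results of these data known. Named per direction were 8 called members of smallest p without overlap, then other called members by symbol, members with a known role, the extremes of level and change, and up to 4 called genes per direction in each related list. Alternatives were RLE and total-count scaling, other count filters, DESeq2 1.42.0, edgeR's exact test, other thresholds and member sets, each library left out, a replicate block, and a correction for GC content and length (loess, span 0.3, values for 90.7% of tested genes). The procedure was also run on simulated counts drawn from means and dispersions fitted to these data, with fewer changed genes than were called here. No result above rests on these runs. Coordinates are from GENCODE M21 (GRCm38), matched by symbol for all 78 members, and promoters from RefSeq (GRCm38.p6). Depth limits the 6 members under 10 CPM most. Members just above this level, such as Mrpl54 and Mrps36, also had large standard errors, of 0.10 and 0.09, beside a median of 0.0475 over the members.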

Additional observations from a re-analysis of the deposited data

How the results depend on the processing

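Counts of called members that moved by over 1.5 times, and the median, are given here. Members that rose (11) were 6 with DESeq2 and 6 with total counts, 19 at an unadjusted p under 0.05 and 5 at an adjusted p under 0.01, where 11 members were called and 6 fell. The shares of all genes at these other thresholds are not given here, so these counts do not compare the members with other genes. Mrps members that rose (6) were 2 with DESeq2 and 2 with total counts. The median log2 fold change of the members was -0.019 with total counts, which moved the median of all genes to -0.0183. It was -0.0056 with RLE or DESeq2, and its sign turned with the GC and length correction (0.0004, with the replicate block 0.0016) and with no filter on low counts (0.0002). With a library left out, 16 to 18 members were called, 6 to 8 rose and 8 to 12 fell, the median ran from -0.00649 to 0.0134, 3 to 5 Mrpl members rose and 5 to 8 fell, and 2 to 4 Mrps members rose and 3 to 4 fell. Between 3608 and 3863 of all genes were then called. Without CON replicate 1, 8 members fell, the lowest number, and the median was 0.0134. The Mrpl40 log2 fold change, the only one among the members to reverse, ran from -2.282 to 0.438, the latter without CON replicate 3. Of the 11 rises, 4 were called in all 15 other settings, and of the 13 falls, 5. Among the members not called, 5 were called in at least 1 other setting.

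The labels number the libraries 1 to 3 in each group. After subtracting the group means, libraries sharing a number correlated at -0.0178, -0.0335 and -0.0137 over all genes, so the numbers were not taken as pairs. Over the members alone, these correlations were positive, at 0.281, 0.0816 and 0.199, and their origin was not tested. With the replicate number as a block, 25 members were called, 12 rises and 13 falls, and 4613 genes over the whole table. The median was -0.0025 with the block, and Mrpl40 was not called. Leaving out Mrpl48-ps (24 called) or members whose exons overlap another gene by over 20% (21 called) was chosen after seeing the data. Precision is limited for members of few counts, and a lone left-out comparison of 2 libraries against 3 has less power by construction.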

Other observations

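The members with under 1 CPM, Mrpl40 and Mrps23, lie beside other genes of low or uneven counts, which were looked up after their values were seen. Within 100 kb of Mrpl40, Cdc45, a replication factor gene, had 17, 26 and 61 counts in the CON group and 119, 40 and 51 in the sTREM-1 group, and Hira, a histone chaperone gene, had 22, 71 and 49 counts and 30, 57 and 19. The claudin gene Cldn5 was at 0 in all 6 libraries. Within 100 kb of Mrps23, which had 25, 22 and 45 counts in the CON group and 14, 51 and 26 in the sTREM-1 group, Cuedc1 had 35, 66 and 75 counts and 45, 39 and 52, and Ccdc182 was at 0. The libraries that were high differed from gene to gene. CON replicate 3, the high library of Mrpl40, was also the highest CON library of Cdc45, whose highest library of all was sTREM-1 replicate 1. In Hira, CON replicate 2 was the highest. Why these rows hold so few counts was not tested.

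The pseudogene rows that the symbol rule leaves out also held few counts. Mrpl23-ps1 had 94 counts over the 6 libraries, Mrps36-ps1 had 92, Mrps36-ps2 had 24 and Mrps36-ps3 had none. Mrps36-ps2 had 2, 1 and 0 counts in the CON group and 8, 6 and 7 in the sTREM-1 group, while Mrps36-ps1 had 15, 14 and 14 counts and 26, 8 and 15. How the counting divided reads between Mrps36 and these rows was not tested. Without the members that have a pseudogene row of the same name, 22 members were called, 10 rises and 12 falls.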
